A study of Mus musculus with 6 samples.

Results

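Fragments of 3 mitochondrial tRNAs, whose genes lie on both sides of mt-Co2 in the mouse mitochondrial genome, were measured in primary pulmonary artery smooth muscle cells kept in normoxia or in hypoxia. The tRNAs were mt_tRNA-Asp-GTC, mt_tRNA-Lys-TTT and mt_tRNA-Ser-TGA. A distinct sequence was taken as a fragment of 1 of them when every annotation that the deposited table gives it names that tRNA. This found 597 sequences (185 of Asp, 143 of Lys and 269 of Ser-TGA) among 6442 sequences of mitochondrial tRNAs and 38798 sequences in all. None of the 597 was shared with another tRNA, and each matched its mature tRNA exactly.

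Both groups were wild-type mouse cells. The hypoxia group was held at 3% oxygen for 24 hours, and the normoxia group was cultured under standard conditions. Each group had 3 libraries, numbered 1 to 3 and called biological replicates by the study. Small RNA was prepared by Pandora-seq, in which enzymes first strip RNA modifications that block adapter ligation or reverse transcription, so that the heavily modified tRNA fragments can be cloned. The study asked which tRNA-derived small RNAs (tsRNAs) respond to hypoxia. Its title names an internal fragment of a tRNA-Asp, and no fragment described here was identified with it. All values cover sequences assigned to tRNAs, so the identity of the cells was not checked against smooth muscle markers.

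Mitochondrial DNA is transcribed into long RNAs from each strand, and the tRNAs lie between the protein and rRNA genes as punctuation marks. Cuts by RNase P at the 5′ end and by ELAC2 at the 3′ end of each tRNA release the neighbouring mRNAs, and a nucleotidyltransferase then adds the CCA tail to the tRNA. The mature tRNAs serve the mitochondrial ribosome, which makes only subunits of the respiratory chain and the ATP synthase, and further nucleases can cut them into fragments. mt-Co2 encodes a subunit of cytochrome c oxidase, the enzyme that passes electrons to oxygen.

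In the GENCODE M21 annotation on GRCm38, the assembly of mm10, mt-Td (tRNA-Asp) lies on the plus strand of the mitochondrial chromosome at chrM:6942-7011 and ends 1 base before mt-Co2 (chrM:7013-7696). mt-Tk (tRNA-Lys) lies on the same strand at chrM:7700-7764, 3 bases after mt-Co2 and 1 base before mt-Atp8. mt-Ts1 (tRNA-Ser-TGA) is encoded on the opposite, minus strand at chrM:6870-6938. It overlaps the last 3 bases of mt-Co1 and lies 3 bases before mt-Td. The whole mature tRNAs are shown because every fragment below is a stretch of one of them. They are read 5′ to 3′ from the genome with the added CCA tail, and the capitals mark the anticodon.
mt_tRNA-Asp-GTC: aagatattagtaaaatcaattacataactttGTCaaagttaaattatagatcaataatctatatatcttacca
mt_tRNA-Lys-TTT: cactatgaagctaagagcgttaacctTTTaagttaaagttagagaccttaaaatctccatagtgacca
mt_tRNA-Ser-TGA: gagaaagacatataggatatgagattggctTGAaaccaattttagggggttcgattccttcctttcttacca
Positions are counted from 1 at the 5′ end of the mature tRNA. The anticodon sits at positions 32 to 34 in Asp, 27 to 29 in Lys and 31 to 33 in Ser-TGA, in each case in a loop closed by 5 of 5 base pairs. The encoded parts measure 70, 65 and 69 nt, with a GC content of 17.1%, 33.8% and 37.7%.

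Totals of all tsRNA counts were 510519, 2563749 and 1713960 in the hypoxia libraries, against 330787, 2217965 and 1629726 in those of normoxia. Together the 3 tRNAs held 4941, 3817 and 2475 of them in hypoxia, against 2670, 4698 and 3769 in normoxia. A level of 3 counts, the most that a count of 0 allows, corresponded to 1.17 to 9.07 CPM (counts scaled to a total of 1e+06 tsRNA counts per library). Intervals and limits of this kind cover counting error only, since the reads carry no molecular identifiers. Both libraries numbered 1 stood apart: mitochondrial tRNAs took 15.3% and 14.4% of their counts, against 5.999% to 7.33% in the other 4. The 3 tRNAs took 0.968% and 0.807% there, against 0.144% to 0.231% elsewhere. Results that rest on these libraries are given with and without them.

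The 3 tRNAs left different fragments. Asp was seen almost wholly as internal pieces, with 94.8% of its counts in the internal class and 2.99% in the 5′ class. Lys and Ser-TGA were seen mostly from their first base, with 61.3% and 58.8% of their counts in the 5′ class. Nearly all other counts of these 2 tRNAs were internal, at 37.1% and 40.5%. The 3′ terminus was rare in all of them: the class ending in the full CCA tail held 1.81% of the Asp counts, 1.36% of the Lys counts and 0.619% of the Ser-TGA counts. The classes are those of the deposited table, which places fragments that end in an incomplete tail in the internal class.

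**Figure D1:**
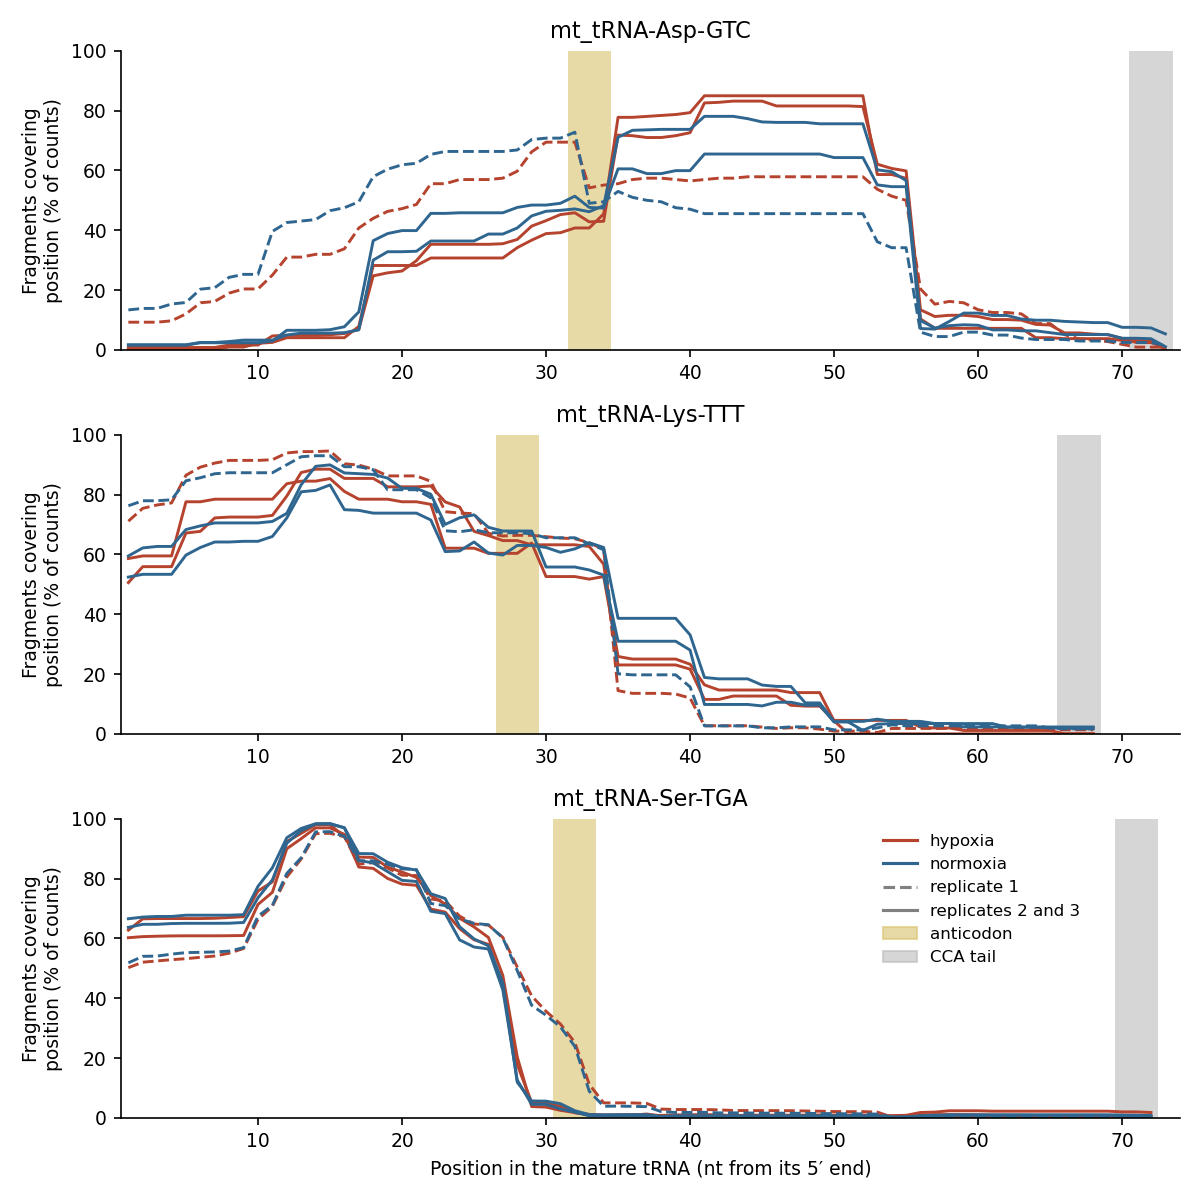
Share of each tRNA's counts (y, in percent) whose fragment covers a given position of the mature tRNA (x, in nt from the 5′ end), with 1 line per library: red for hypoxia, blue for normoxia, dashed for replicate 1. Bands mark the anticodon and the CCA tail; in the solid lines Asp is covered most between positions 35 and 55 and Ser-TGA from the 5′ end to just before the anticodon, while both dashed lines run further to the 5′ side in Asp and into the anticodon in Ser-TGA. Lys is covered from the 5′ end to position 34 in all lines.

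Asp fragments ended or began at few places. Position 35, the first base after the anticodon, was the most frequent start, with 14.4% to 42.0% of the counts in the 6 libraries. In replicates 2 and 3 of both groups position 18 came next, with 17.8% to 24.3%. In the libraries numbered 1 it opened only 4.17% of the counts in hypoxia and 8.91% in normoxia, and the true 5′ end gave more, at 9.26% and 13.4% (0.313% to 1.71% in the other 4). Starts at position 11 took 14.4% in normoxia 1, as many as position 35 there, and 4.63% in hypoxia 1. Ends were most frequent at position 55, with 29.2% to 50.2% of the counts. Position 34, the last anticodon base, closed 7.91% to 16.1% of the counts. Ends at position 52 took 4.17%, 19.3% and 26.3% in hypoxia, against 9.41%, 15.4% and 9.13% in normoxia. Ends at position 32, the first anticodon base, were frequent in the libraries numbered 1, at 18.1% and 27.7%, and took 0.313% to 4.76% in the others.

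The sequences that carry this pattern in Asp fit end to end. The piece from position 18 to 34 and the piece from 35 to 55 abut at the 3′ side of the anticodon, and the piece from 18 to 55 spans both.
Asp 18 to 34: aattacataactttGTC
Asp 35 to 55: aaagttaaattatagatcaat
Asp 18 to 55: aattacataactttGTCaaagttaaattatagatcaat
They lie at chrM:6959-6975, chrM:6976-6996 and chrM:6959-6996 on the plus strand. The middle one was the most abundant of all Asp sequences, with 21.1% of the tRNA's counts. Of all Asp counts, 42.6% held the whole anticodon, 43.5% began after it, 13.2% were cut inside it and 0.631% ended before it. The libraries numbered 1 differed here too: 23.6% of the counts in hypoxia and 18.3% in normoxia began after the anticodon, where the other 4 libraries had 43.3% to 52.7%. Cuts inside it took 25.5% and 37.1% there, where the other 4 had 7.30% to 13.9%.

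Lys gave long fragments from its 5′ end that ran through the anticodon. Position 1 opened 50.6% to 76.3% of the Lys counts, and position 34, 5 bases past the anticodon, closed 22.9% to 47.6%. The piece joining these sites was the most abundant Lys sequence, with 24.8% of the tRNA's counts, and a shorter internal form began at position 5.
Lys 1 to 34: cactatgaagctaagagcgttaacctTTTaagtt
Lys 5 to 34: atgaagctaagagcgttaacctTTTaagtt
They lie at chrM:7700-7733 and chrM:7704-7733 on the plus strand. The whole anticodon was held by 63.8% of the Lys counts, while 29.5% ended before it.

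Ser-TGA gave shorter 5′ fragments that stopped before the anticodon. Position 1 opened 50.2% to 66.6% of its counts, and starts at positions 12 and 10 followed with 9.81% to 14.6% and 8.26% to 10.5%. Ends were spread over a ladder, of which position 27 held 9.93% to 33.2%, position 28 held 6.27% to 16.6%, position 26 held 4.11% to 14.6% and position 16 held 6.81% to 11.2%. The 2 sequences of the 5′ class with the most counts and the internal one with the highest mean CPM are shown for their shared stretch.
Ser-TGA 1 to 27: gagaaagacatataggatatgagattg
Ser-TGA 1 to 16: gagaaagacatatagg
Ser-TGA 10 to 27: atataggatatgagattg
They lie at chrM:6912-6938, chrM:6923-6938 and chrM:6912-6929 on the minus strand. The first held 11.8% of the tRNA's counts and the second 9.46%.

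The Ser-TGA pattern set the libraries numbered 1 apart from the other 4, in both groups. In replicates 2 and 3 of both groups, 93.3% to 95.8% of the Ser-TGA counts ended before the anticodon. In the libraries numbered 1 the share was 67.8% in hypoxia (95% exact binomial interval 66.4% to 69.2%) and 69.2% in normoxia (67.2% to 71.1%). Cuts inside the anticodon took 20.3% and 21.6% of the counts there, against 1.57% to 3.62% in the other 4 libraries. The sequence from position 1 to 32, which ends on the middle anticodon base, had 233 counts in hypoxia 1 and 122 in normoxia 1, but 1 to 17 counts in each of the other 4 libraries.

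Mean fragment length kept the order Lys, Asp, Ser-TGA in both groups. Lys fragments averaged 27.4 ± 1.08 nt in hypoxia, against 27.6 ± 0.964 nt in normoxia (SD, n = 3). Asp fragments averaged 24.8 ± 1.72 and 24.3 ± 1.57 nt, and Ser-TGA fragments 20.9 ± 0.619 and 20.95 ± 0.353 nt. Within each tRNA the group means differed by less than the spread between libraries. Fragments of 30 nt or longer made up 46.8% of the Lys counts, 27.3% of the Asp counts and 4.95% of the Ser-TGA counts. These shares were higher in the libraries numbered 1, at 58.2% and 55.9% for Lys (36.2% to 43.0% in the others), 38.9% and 32.2% for Asp (23.2% to 27.8%) and 11.7% and 10.7% for Ser-TGA (0.490% to 1.92%).

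**Figure D2:**
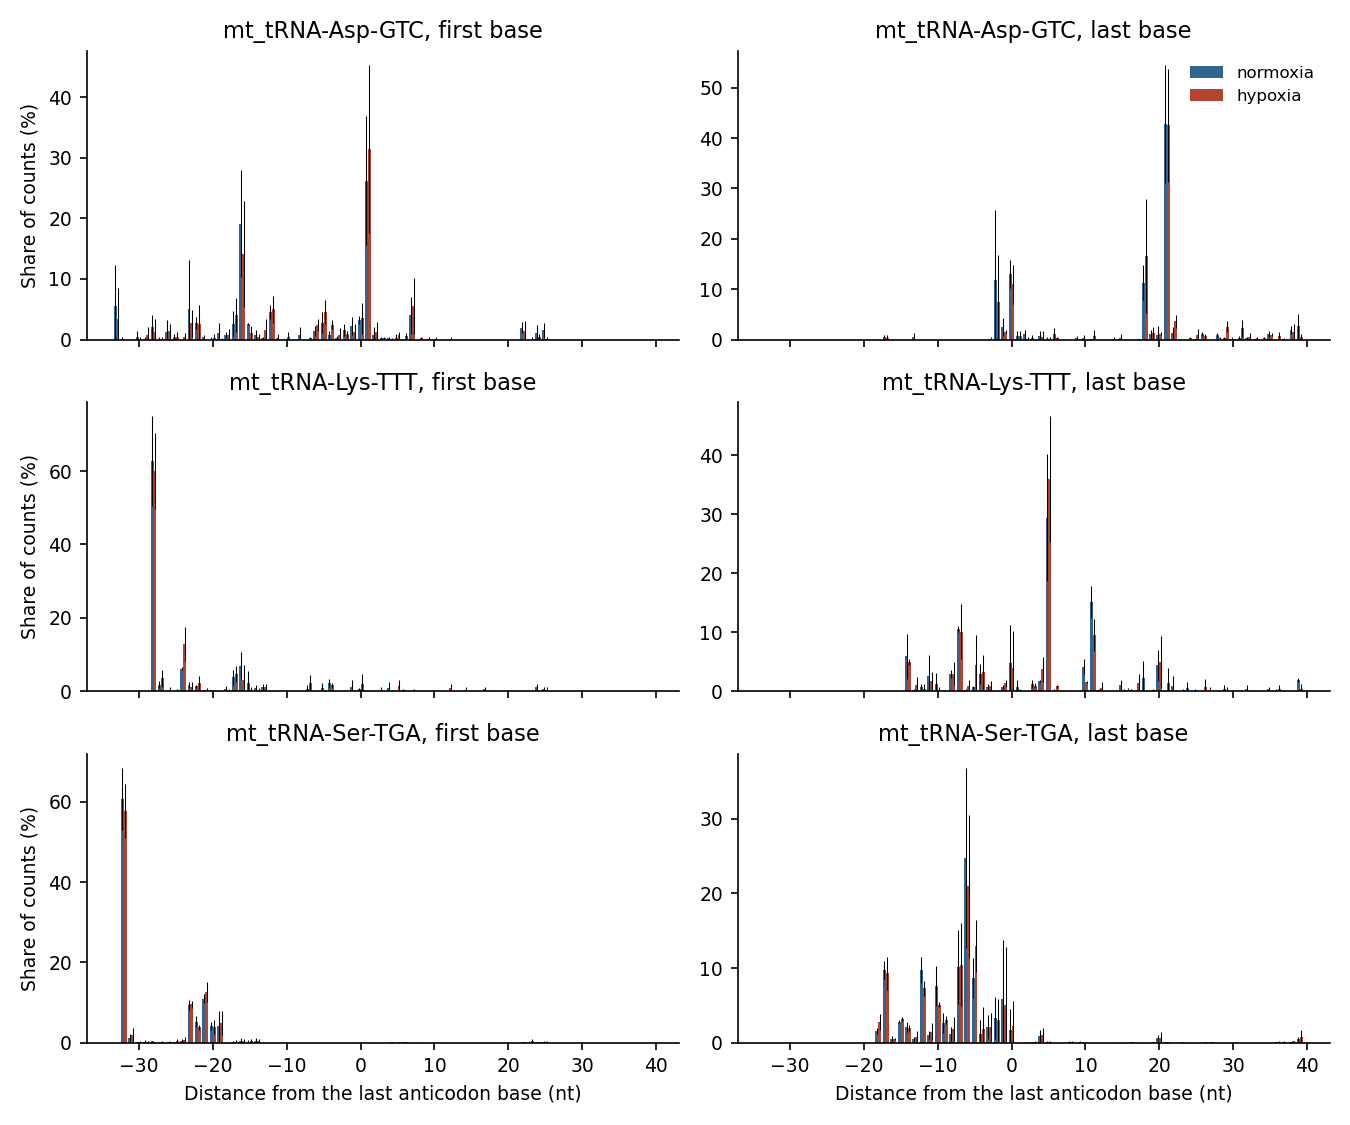
Share of counts (y, in percent; bars are group means over 3 libraries, thin lines ± SD) by first base (left) and last base (right) of the fragment; x is the distance in nt from the last anticodon base. Asp starts are highest at distance 1 and its ends at 21, Lys starts lie at its 5′ end with ends highest at 5, and Ser-TGA ends lie before the anticodon, in both groups.

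Levels of different tRNAs were compared as CPM per 10 nt of encoded length. Ser-TGA stood highest of the 3 in each of the 6 libraries. It had 1216, 168 and 172 CPM per 10 nt in hypoxia and 950, 236 and 254 in normoxia, and its mean level ranked 6 of the 22 mitochondrial tRNAs. Lys had 134, 21.4 and 10.4 in hypoxia, against 139, 30.2 and 38.4 in normoxia, and ranked 18. Asp had 60.4, 27.5 and 26.6 in hypoxia, against 87.2, 41.4 and 44.2 in normoxia, and ranked 19. Lys and Asp did not differ beyond their spread: the ratio of Lys to Asp was 2.21 and 1.59 in the libraries numbered 1 and 0.392 to 0.870 in the others. The ratio of Ser-TGA to Asp was 20.1 and 10.9 in the libraries numbered 1 and 5.71 to 6.49 in the others.

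Asp fragments were at a lower level in hypoxia in every same-numbered pair of libraries, by about the same factor, while the size of the difference for Lys and the sign for Ser-TGA depended on the libraries numbered 1. To compare groups, CPM were scaled by trimmed-mean factors over the 73 tRNA families (scaled CPM), which were 1.60 and 1.52 in the libraries numbered 1 and 0.792 to 0.810 in the others. Replicates 2 and 3 showed no pairing of their own, so results by pair match these libraries by number only. Scaled CPM are relative to the other tsRNAs of a library, so amounts per cell cannot be read from them. In these bulk samples a difference in all cells cannot be told from one in a part of them.

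Asp had 216, 493 and 319 counts in hypoxia, against 202, 643 and 504 in normoxia. That is a scaled level of 264.8, 237.3 and 233.7 CPM in hypoxia, against 402.4, 365.9 and 383.6 in normoxia. All hypoxia libraries lay below all normoxia libraries, with means of 245.2 ± 17.0 and 384.0 ± 18.2 CPM (SD over 3 libraries; exact two-sided permutation p = 0.1, the smallest that 3 against 3 allows). Hypoxia over normoxia was 0.658, 0.648 and 0.609 in pairs 1, 2 and 3. On this scale 21 of the 73 families (28.8%) were lower in hypoxia in all 3 pairs, among them 11 of the 22 mitochondrial ones. Among the 73 families, 8.22% had all hypoxia libraries below all normoxia libraries on this scale. On the plain CPM scale, without trimmed-mean factors, the groups overlapped (423, 192 and 186 in hypoxia, 611, 290 and 309 in normoxia).

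In the test across all families the Asp sum did not pass. edgeR's quasi-likelihood test with Benjamini-Hochberg adjustment gave a log2 difference of hypoxia minus normoxia of -0.65 (SE 0.22, adjusted p = 0.902), where 0.0% of families passed in either direction. DESeq2 called it (-0.47, SE 0.14, adjusted p = 0.0376, 2.74% of families called lower). edgeR's quasi-likelihood test also called it without both libraries numbered 1 (-0.69, SE 0.14, adjusted p = 0.0425, 11.0% of families called lower). With the replicate number also modelled in those 4 libraries it was not called (edgeR's quasi-likelihood test, -0.69, SE 0.27, adjusted p = 0.0735). The difference was as large without those libraries as with them.

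Lys had 443, 356 and 116 counts in hypoxia, against 299, 435 and 407 in normoxia, or scaled levels of 543, 171 and 85.0 CPM against 596, 248 and 310. The groups overlapped, and both libraries numbered 1 were high: 266 ± 243 against 384 ± 186 CPM (SD over 3 libraries; exact two-sided permutation p = 0.5). Hypoxia was lower in each pair, at 0.912, 0.692 and 0.274 of normoxia, as it was in 11 of the 22 mitochondrial families. edgeR's quasi-likelihood test gave -0.53 (SE 0.73, adjusted p = 0.996). Leaving out hypoxia 1 moved the log2 difference to -1.58, leaving out normoxia 1 to -0.07, leaving out hypoxia 2 to -0.19 and leaving out hypoxia 3 to -0.11. Without both libraries numbered 1 it was -1.12 (SE 0.33; edgeR's quasi-likelihood test, adjusted p = 0.0941). It passed when the replicate number was also modelled in those 4 libraries (-1.19, SE 0.28, adjusted p = 0.00094; 17.8% of families were called lower in that fit). That call depends on a match by number that the counts of those libraries did not bear out.

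Ser-TGA had 4282, 2968 and 2040 counts in hypoxia, against 2169, 3620 and 2858 in normoxia, or scaled levels of 5249, 1428 and 1494 CPM against 4321, 2060 and 2175. Pair 1 went one way and pairs 2 and 3 the other: hypoxia over normoxia was 1.21, 0.693 and 0.687. The means of 2724 ± 2187 and 2852 ± 1273 CPM differed by less than the spread between replicates (SD over 3 libraries; exact two-sided permutation p = 1). edgeR's quasi-likelihood test gave -0.07 (SE 0.63, adjusted p = 0.996), and the sign turned under DESeq2 (0.13, SE 0.66, adjusted p = 0.972) and other scalings. Without both libraries numbered 1 the difference was -0.55 (SE 0.14; edgeR's quasi-likelihood test, adjusted p = 0.0752). Leaving out hypoxia 1 alone gave -0.96, and leaving out normoxia 1 alone gave 0.36.

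**Figure D3:**
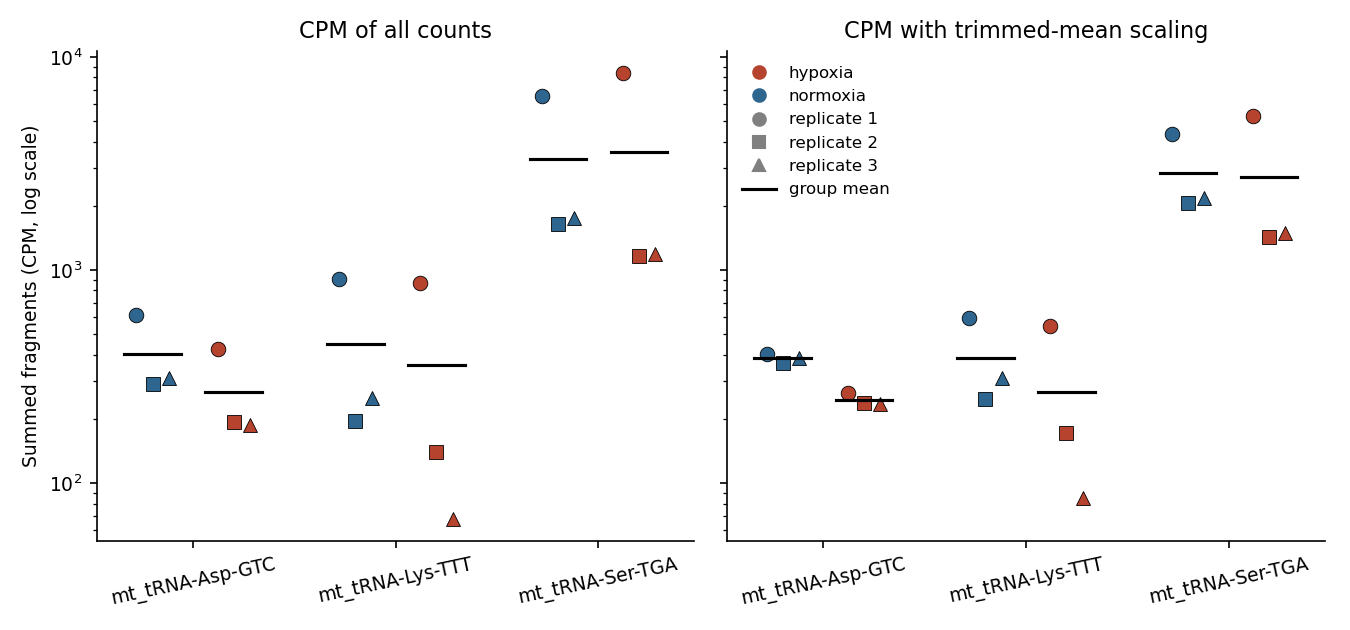
Summed fragments of each tRNA per library (y, CPM on a log scale), as CPM of all counts (left) and with trimmed-mean scaling (right); symbols give the replicate number and horizontal lines the group means. With scaling, the 3 hypoxia libraries of Asp (233.7 to 264.8) lie below its 3 normoxia libraries (365.9 to 402.4), while for Lys and Ser-TGA both replicate 1 libraries lie above the others.

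As a share of all mitochondrial tRNA counts, which does not depend on the scaling, Asp made up 0.302% ± 0.022 in hypoxia, against 0.428% ± 0.008 in normoxia (SD, n = 3). The groups did not overlap (exact two-sided permutation p = 0.1, adjusted over the 3 tRNAs 0.3). The Lys shares of 0.304% ± 0.237 and 0.422% ± 0.181 overlapped (exact permutation p = 0.5, adjusted 0.75). Ser-TGA took 3.13% ± 2.05 and 3.14% ± 1.24 (exact permutation p = 1, adjusted 1).

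The 22 mitochondrial tRNAs give the setting of these differences. In edgeR's quasi-likelihood fit with the group alone, 0 of 22 passed in either direction (1 had an unadjusted p below 0.05, that of Asp), and 18 lay below zero, but with DESeq2, where 1 passed, the split was 11 below and 11 above. The change of scaling moved the median of all 73 families from -0.07 to 0.11. The median of the 22 was -0.21 in the edgeR fit. Without both libraries numbered 1, edgeR's quasi-likelihood test called 7 of 22 lower and 0 higher, and 19 lay below zero with a median of -0.52. The 7 were Asp, Gln-TTG, Gly-TCC, Ile-GAT, Phe-GAA, Ser-GCT and Tyr-GTA. Across all families in that fit 11.0% were called lower, and the median was -0.06.

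By strand of the gene, the values are a description only. Of the 8 tRNAs encoded like Ser-TGA on the minus strand, 6 lay below zero in the edgeR fit, with a median of -0.08, but 2 with DESeq2 (median 0.10). Of the 14 encoded like Asp and Lys on the plus strand, 12 lay below zero, with a median of -0.34, but 9 with DESeq2 (-0.14). Without both libraries numbered 1 the medians were -0.15 and -0.62, with 6 of 8 and 13 of 14 below zero. No test of the difference between the strands was made. Ranked from the most negative in the edgeR fit with all 6 libraries, Asp was 5 and Lys 6 of the 22, and Ser-TGA was 15. Without both libraries numbered 1, Asp was 7 and Lys 3.

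**Figure D4:**
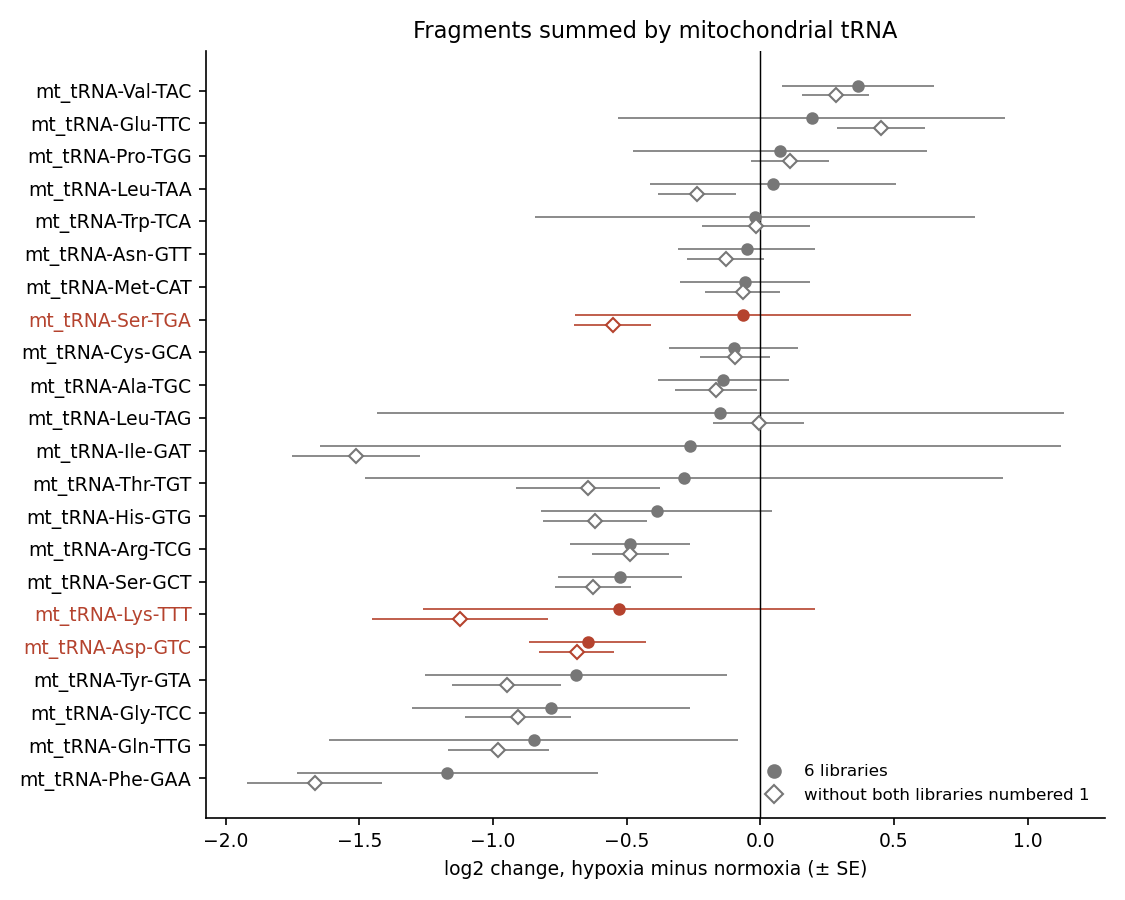
Log2 difference of hypoxia minus normoxia (x, ± SE) of the summed fragments of each of the 22 mitochondrial tRNAs, from edgeR with all 6 libraries (filled circles) and without both libraries numbered 1 (open diamonds); Asp, Lys and Ser-TGA are in red. Asp stays near -0.65 with a narrow error in both fits, whereas Lys moves from -0.53 to -1.12 and Ser-TGA from -0.07 to -0.55.

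Fragment classes of the 3 tRNAs were compared by their counts. Of 240 units of tRNA and class, 0.0% passed in edgeR's quasi-likelihood test with the group alone, and 0.0% passed with the replicate number added. Asp internal fragments had 192, 478 and 318 counts in hypoxia, against 172, 625 and 469 in normoxia, with a log2 difference of -0.59 (SE 0.34). Lys 5′ fragments had 315, 180 and 68 counts in hypoxia, against 228, 228 and 242 in normoxia (-0.53, SE 0.93), and Lys internal fragments differed by -0.43 (SE 0.63). Ser-TGA 5′ fragments had 2150, 1787 and 1280 counts in hypoxia, against 1124, 2305 and 1902 in normoxia (-0.16, SE 0.54). Ser-TGA internal fragments differed by 0.09 (SE 0.81) and its CCA ends by 0.31 (SE 0.97). Adjusted p was 0.998 for each of the 6 units in that edgeR fit. The Asp internal difference was -0.66 (SE 0.24) without both libraries numbered 1. Lys 5′ fragments then gave -1.23 (SE 0.40) and Lys internal fragments -0.9998 (SE 0.46). Ser-TGA gave -0.65 (SE 0.17) for 5′ fragments, -0.44 (SE 0.19) for internal ones and 0.27 (SE 0.66) for CCA ends. edgeR's quasi-likelihood test called 0 of the 6 in those 4 libraries (adjusted p from 0.052 to 0.838), where 5.91% of 237 units were called.

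Within each tRNA the class shares of the groups overlapped except for the rare CCA ends. CCA ends of Asp numbered 2, 4 and 0 counts in hypoxia, against 3, 7 and 27 in normoxia, or 0.579% ± 0.505 against 2.64% ± 2.36 of the tRNA's counts (SD, n = 3 per group). CCA ends of Lys numbered 6, 0 and 0 in hypoxia, against 5, 10 and 7 in normoxia, or 0.452% ± 0.782 against 1.90% ± 0.349. All hypoxia shares lay below all normoxia shares in both (exact two-sided permutation p = 0.1, adjusted 0.7 over 14 tests), on counts this small. CCA ends of Ser-TGA, at 4, 53 and 11 counts against 1, 20 and 22, overlapped (exact permutation p = 0.7). For the 5′ and internal shares the exact permutation p was 0.5 to 0.7.

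**Figure D5:**
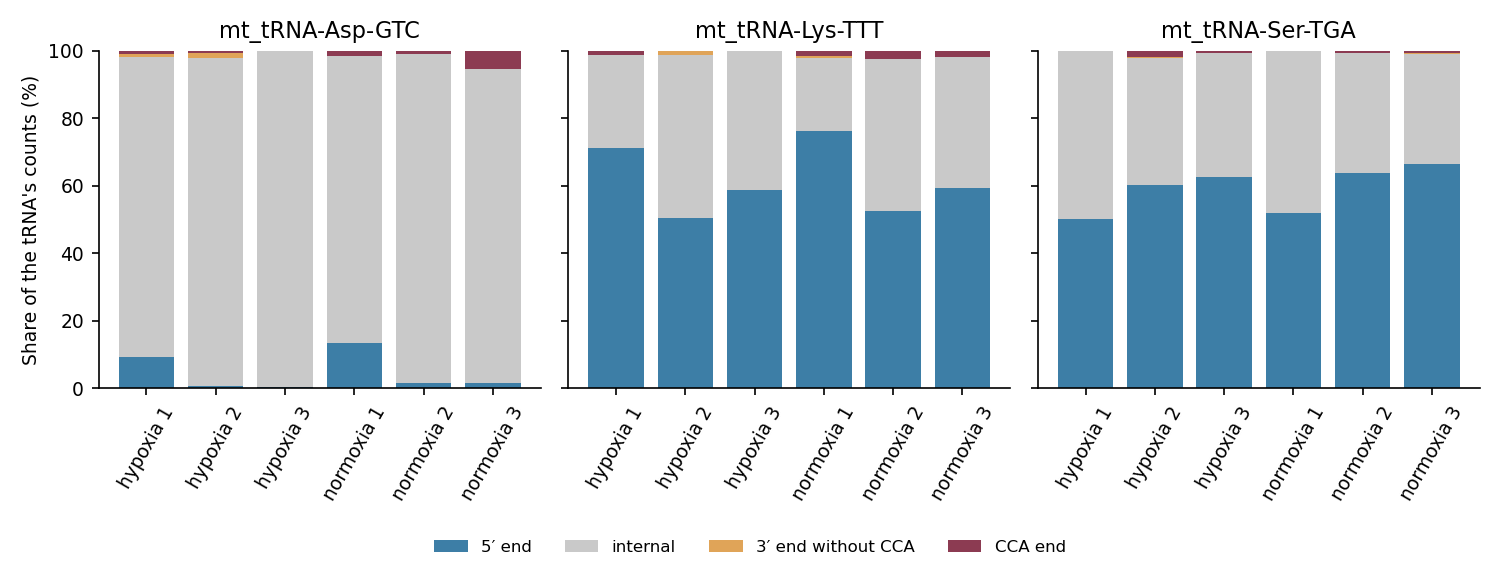
Share of each tRNA's counts (y, in percent) in the 4 annotated fragment classes, with 1 stacked bar per library. Asp is mostly internal in all 6 libraries, Lys and Ser-TGA are split between 5′ and internal fragments, and the libraries numbered 1 have more Asp and Lys counts at the 5′ end and fewer Ser-TGA counts there than the other 4.

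A few cut sites of Lys took different shares in the groups without overlap, and none was tested. Starts at position 5 took 9.26%, 11.2% and 18.1% of the Lys counts in hypoxia and 6.35%, 6.44% and 5.65% in normoxia. Ends at position 40 took 9.26%, 12.4% and 6.90% in hypoxia and 13.0%, 14.3% and 18.2% in normoxia. These sites were named after their values were seen. The share of all start and end positions without overlap is not given here, so the sites are a description only.

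Single sequences were tested across the whole table of 6452 tsRNAs that had enough counts. Of the 597 sequences, 55 were among them (9 Asp, 9 Lys and 37 Ser-TGA), and they held 60.4%, 57.3% and 85.9% of the counts of their tRNAs. The other 542 were not tested, and 295 of the 597 were seen in 1 library only. For single sequences the trimmed-mean factors were taken over the tested tsRNAs, not over the tRNA families. They were 1.32 in hypoxia 1, 1.38 in normoxia 1 and 0.839 to 0.893 in the other libraries. edgeR's quasi-likelihood test called 0 of the 55 (0.0% of all tested), and 0 were higher and 1 was lower at an unadjusted p below 0.05, against 18 and 27 in the whole table. With the replicate number modelled it again called 0 of the 55, where 0.155% of all tested tsRNAs were called. DESeq2 and limma also called 0 of the 55.

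The tested sequences hold most of the counts of their tRNAs, so their direction is not independent of that of the tRNA sums. In the fit with the group alone, all 9 Asp sequences lay below zero (median log2 difference -0.74), and 7 of 9 for Lys (median -0.47). For Ser-TGA 18 lay below and 19 above zero, with a median of 0.01. Over all tested tsRNAs 3146 of 6452 lay below zero, with a median of 0.02. With the replicate number modelled, 8 Asp, 8 Lys and 24 Ser-TGA sequences lay below zero, and 3154 of all tested. Without both libraries numbered 1 it was 6 of 8 for Asp, 8 of 8 for Lys and 25 of 34 for Ser-TGA. Of the 55, 3 had all hypoxia libraries below all normoxia libraries in CPM (2.51% of all tested tsRNAs did) and 0 had the reverse (2.32%). The 3 were Asp sequences: positions 18 to 55, 35 to 55 and 56 to 72. These counts and shares are in plain CPM. With the factors over tested tsRNAs, normoxia 1 fell below hypoxia 3 for 35 to 55 and for 56 to 72. Of the 3, only 18 to 55 then stayed apart.

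The sequence with the smallest p among the 55 was the Asp piece that spans both sides of the anticodon, from position 18 to 55. It had 1, 25 and 15 counts in hypoxia, against 11, 84 and 46 in normoxia. That is 1.96, 9.75 and 8.75 CPM against 33.3, 37.9 and 28.2, or 6.82 ± 4.24 against 33.1 ± 4.82 CPM (SD, n = 3 per group). Every hypoxia library lay below every normoxia library, but the 1 count in hypoxia 1 is under the level of 3 counts (5.88 CPM there). The sequence was picked by its p, so this separation is no separate support. The log2 difference was -2.11 (SE 0.82; edgeR's quasi-likelihood test, adjusted p = 0.9996), and -1.87 (SE 0.62) without both libraries numbered 1, so the sequence did not pass over the whole table.

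Its 2 shorter counterparts differed less. The 3′ piece, from 35 to 55, had 31, 106 and 77 counts in hypoxia, against 23, 156 and 109 in normoxia, or 60.7, 41.3 and 44.9 CPM against 69.5, 70.3 and 66.9. Its groups did not overlap in plain CPM. With the factors over tested tsRNAs they did, as normoxia 1 fell below hypoxia 3. The log2 difference of this 3′ piece was -0.55 (SE 0.55). The 5′ piece, from 18 to 34, had 4, 25 and 19 counts in hypoxia, against 1, 57 and 62 in normoxia, with a difference of -1.38 (SE 0.97) and groups that overlapped through the libraries numbered 1. Whether the spanning piece and its parts differ in response was not tested.

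Other Asp sequences were at or near the limits of counting. Taking the highest mean CPM over the 6 libraries as most abundant in a class, the most abundant 5′ sequence of Asp, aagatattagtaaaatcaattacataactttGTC (1 to 34), had 8, 3 and 1 counts in hypoxia, against 6, 5 and 0 in normoxia. The most abundant CCA end, ctatatatcttacca (59 to 73), had 0, 2 and 0 counts in hypoxia, against 3, 2 and 14 in normoxia. Both were too low for the test. The piece from 56 to 72, aatctatatatcttacc, continues where the spanning piece stops and ends in an incomplete tail. It had 0, 6 and 10 counts in hypoxia, against 2, 17 and 10 in normoxia (log2 difference -1.06, SE 1.13).

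For Lys the long 5′ piece from 1 to 34 had 165, 66 and 20 counts in hypoxia, against 114, 77 and 68 in normoxia, or 323, 25.7 and 11.7 CPM against 345, 34.7 and 41.7. It was lower in hypoxia in each pair, in plain CPM and with the factors over tested tsRNAs (in pair 1, 245 against 250 scaled CPM). The libraries numbered 1 made the groups overlap, and the log2 difference was -0.24 (SE 1.19). The form that lacks the first 4 bases, from 5 to 34, had 21, 16 and 6 counts in hypoxia, against 6, 7 and 2 in normoxia. It was the Lys sequence with the highest positive difference (1.30, SE 1.17) and was higher in hypoxia in all 3 pairs. The 5′ pieces that stop before the anticodon, cactatgaagctaagagcgtt (1 to 21) and cactatgaagctaagagcgtta (1 to 22), differed by -1.25 (SE 1.02) and -0.95 (SE 1.06). Another 5′ piece, cactatgaagctaagagcgttaacc (1 to 25), had 25 counts in hypoxia 1 and 2 to 14 counts in the other 5 libraries, which gave 0.94 (SE 1.34). Without both libraries numbered 1 its difference was -2.39 (SE 1.53).

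For Ser-TGA the 5′ piece from 1 to 27 had 159, 371 and 350 counts in hypoxia, against 106, 683 and 449 in normoxia, or 311, 145 and 204 CPM against 320, 308 and 276. In plain CPM it was lower in hypoxia in each pair, by little in pair 1. There the factors over tested tsRNAs turned the order (237 against 232 scaled CPM). The log2 difference was -0.53 (SE 0.49). The piece from 1 to 16 had 416, 321 and 130 counts in hypoxia, against 196, 316 and 318 in normoxia, with a difference of 0.03 (SE 0.82). One base shorter, gagaaagacatatag (1 to 15) had 88, 65 and 82 counts in hypoxia, against 45, 46 and 41 in normoxia. That piece was higher in hypoxia in all 3 pairs (0.50, SE 0.84).

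Both internal Ser-TGA sequences given here lay below zero, while the internal class as a whole gave 0.09 (SE 0.81). The most abundant, from 10 to 27, differed by -0.21 (SE 0.64), and the neighbouring tataggatatgagattg (11 to 27) by -0.81 (SE 0.64). The 5′ piece gagaaagacatataggatatgagat (1 to 25) differed by 0.41 (SE 0.78). The most abundant CCA end of Ser-TGA, tccttcctttcttacca (56 to 72), had 0, 27 and 6 counts in hypoxia, against 0, 10 and 2 in normoxia, and was too low for the test. The 3′ end without CCA that was most abundant by mean CPM held only 2 counts for Asp, 1 for Lys and 1 for Ser-TGA, summed over the libraries.

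Without both libraries numbered 1, 50 of these sequences were tested, and 39 lay below zero with a median of -0.78. edgeR's quasi-likelihood test called 0 of them (smallest adjusted p = 0.202; 0.0154% of all tested tsRNAs were called), and 8 were lower and 1 higher at an unadjusted p below 0.05. In that fit the whole table held 6498 tested tsRNAs, of which 3212 lay below zero with a median of 0.01, and 319 were lower and 294 higher at an unadjusted p below 0.05. The smallest adjusted p belonged to the Ser-TGA piece gagaaagacatataggatatgag (1 to 23), named after its value was seen, which had 208, 164 and 96 counts in hypoxia, against 89, 327 and 248 in normoxia. Its log2 difference was -0.30 (SE 0.72) with all libraries and -1.36 (SE 0.37) without both libraries numbered 1.

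Across the 6 libraries the levels of Lys and Ser-TGA ran alike, and Asp ran apart from Ser-TGA. Pearson's r of log2(scaled CPM + 1), given as a description over 6 libraries that share 2 groups and the divergent replicate 1, was 0.90 for Lys with Ser-TGA, 0.61 for Asp with Lys and 0.38 for Asp with Ser-TGA. Among the 72 other families the closest to Asp were mitochondrial Arg-TCG (0.90), mitochondrial Phe-GAA (0.85) and nuclear Gly-TCC (0.81). The closest to Lys were mitochondrial His-GTG (0.95), Ile-GAT (0.94) and Gly-TCC (0.93). For Ser-TGA they were mitochondrial Ile-GAT (0.99), mitochondrial Leu-TAA (0.99) and nuclear Met-CAT (0.97).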

How the data were processed

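The authors deposited raw counts, not normalized, per distinct tsRNA sequence of 15 to 45 nt, with a tRNA annotation and a fragment class, per the file headers. Build mm10 is named in the submitters' processing notes. The sources used here do not name the aligner, the annotation tool or a filter. The sample titles gave each library its group and number.

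Each sequence of the 3 tRNAs was placed by exact match to the gene in GENCODE M21 (GRCm38) followed by CCA. Counts per sequence, per tRNA family and per family and class were tested over the whole table with edgeR 4.0.16 (R 4.3.3), with filterByExpr, trimmed-mean factors and the group as the only term in its quasi-likelihood F-test, and a threshold of 0.05 on p adjusted by Benjamini-Hochberg. A sequence of several families counted in each; no sequence of a mitochondrial tRNA was shared. DESeq2 1.42.0, limma 3.58.1, other scalings and filters, a replicate block and left-out libraries were alternatives. Exact two-sided permutation tests compared shares (SciPy 1.17.1, Python 3.11.15). p-values rest on the spread between 3 cultures per group. The model fits were tried on simulated counts of single sequences with large known changes and no shift of the libraries numbered 1. That trial did not cover sums by tRNA or class, or small differences.

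Deviations from the group mean correlated between same-numbered libraries (0.80, 0.52 and 0.44), and the numbers were treated as pairs. With 3 libraries per group such deviations cancel out, so a shift shared by the libraries numbered 1 can give 0.52 and 0.44 too. Taken by themselves, replicates 2 and 3 gave -0.02. By chi-squared per degree of freedom, hypoxia 2 and 3 both lay nearer to normoxia 2 (17.0 each) than to normoxia 3 (30.9 and 37.8). Pairs 2 and 3 were therefore matched by number only. No 2 libraries held alike counts.

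The tRNAs, the lists and the tests were chosen with earlier results of these data known. Named sequences were, per tRNA, the most abundant of each class, the 2 higher and 2 lower tested ones with the smallest unadjusted p, and any past the adjusted threshold with or without the block. The remaining Asp, Lys and Ser-TGA sequences with values, and the cut sites, were picked after their values were seen.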

Additional observations from a re-analysis of the deposited data

How the results depend on the processing

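Of the sequences of the 3 tRNAs, 0 were called under any of the 20 alternatives. Calls across the whole table of tsRNAs rose from 0 to 10 with the replicate block, 12 with the block and DESeq2 size factors, 28 with the block in DESeq2, 9 with the block in limma, 26 and 21 with the block and pair 1 or pair 3 left out, and 1 with both libraries numbered 1 left out. Of the units of tRNA and class, 14 were called with both libraries numbered 1 left out, 7 with the block in DESeq2, 1 with the block in limma, and 14 and 5 with the block and pair 1 or pair 2 left out, against 0. The block combinations were chosen after seeing the data, and every block matches replicates 2 and 3 by number only. In each of these settings the cause of the change was not tested.

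With the replicate block, edgeR's quasi-likelihood test gave a log2 difference of -0.65 for Asp (SE 0.17, adjusted p = 0.0581), -0.82 for Lys (SE 0.29, adjusted p = 0.145) and -0.26 for Ser-TGA (SE 0.20, adjusted p = 0.533). It changed none of these calls, and none among the 55 tested sequences or the 6 tested classes of the 3 tRNAs. Asp was below zero in each of the 20 alternatives, from -0.70 to -0.53 with 1 library left out, and its call was gained with DESeq2 (-0.47) and without both libraries numbered 1 (-0.69). The block ended both calls: it gave -0.69 in edgeR with pair 1 left out (adjusted p = 0.0735) and -0.48 in DESeq2 (SE 0.30), which gave no adjusted p for Asp and Lys with the block. Lys ranged from -1.58 to -0.07 with 1 library left out and was called with the block and pair 1 left out (-1.19). Ser-TGA changed sign with DESeq2 size factors (0.13), plain totals (0.11) and DESeq2 (0.13), and ranged from -0.96 to 0.36 with 1 library left out.

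Among classes, Ser-TGA 5′ ends gave 0.013 with plain totals and -0.81 to 0.017 with 1 library left out. Ser-TGA internal fragments (0.09) gave -0.17 in limma, -0.16 with the block and -0.44 without both libraries numbered 1. DESeq2 without the block kept the sign (0.15). Block fits gave -0.12 with DESeq2 size factors, -0.12 in DESeq2 and -0.13 in limma. With the block and pair 1, 2 or 3 left out, the values were -0.44, -0.11 and -0.087. Leaving out 1 library, without the block, gave -0.99 to 0.56. Ser-TGA CCA ends ranged from -0.73 to 0.87. Differences in class share, in percentage points, with 1 library left out, ranged from -4.99 to 1.81 for Asp 5′ (-2.09; 0.031 with sequences of at least 10 counts), -8.12 to 4.16 for Lys 5′ (-2.61), -2.98 to 9.56 for Lys internal (3.795), -7.39 to 0.80 for Ser-TGA 5′ (-2.96) and -1.57 to 7.24 for Ser-TGA internal (2.58). The Ser-TGA share of mitochondrial counts ranged from -1.19 to 0.71 points, against -0.14 to -0.11 for Asp and -0.25 to -0.01 for Lys. Depth limits the 542 sequences too low to test, and the CCA ends of Asp and Lys, which had at most 27 counts in a library.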
